A study of Drosophila melanogaster with 6 samples.

Results

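Neuropeptides are short signalling molecules cut from larger precursor proteins and released by neurons and by enteroendocrine cells, the hormone cells of the gut. Most act through G protein-coupled receptors, and many are amidated at their C-terminus before release. In Drosophila they regulate feeding, water balance, gut movement, energy stores and daily rhythms, and the larval brain and midgut that make them are rebuilt during metamorphosis.

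The genes described here are 10 brain and gut neuropeptide genes, namely sNPF, NPF, Dh31, Dh44, Tk, AstA, AstC, Mip, Akh and Pdf. They were found by the single gene symbol of each probe set in the platform's probe-to-gene table. Of these 10, 8 had such a probe set, 1 each, among 11982 genes measured in this way. Tk and AstA were not analysed here. In the RefSeq assembly Release 6 plus ISO1 MT, sNPF, Dh31 and AstC lie on chromosome arm 2L, Mip and Akh on 3L, and NPF, Dh44 and Pdf on 3R.

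RNA came from whole Drosophila melanogaster prepupae at 0 h, just after the puparium formed. The mutant was homozygous for the sox14 L1 allele (sox14L1/sox14L1) in the w1118 background, and the control was w1118 without that allele, so both genotypes carried the w1118 eye colour mutation. Each genotype had 3 arrays, each from 10 pooled prepupae. The labels do not say whether the pools came from separate cultures, so each p-value reflects only the spread among these arrays, which may be technical. Sox14 encodes an HMG-box transcription factor, and the comparison asks which transcripts depend on it at the onset of metamorphosis. RNA of whole animals was measured, so fewer cells of a type and less RNA per cell cannot be told apart in any result below.

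Values are log2 levels after RMA, a method that corrects background, normalises arrays and summarises the probes of each probe set. Levels are not comparable between probe sets, so the change of each gene is taken from its own values across arrays. The differences between paired peptide genes and the summed or mean levels of gene lists, given below, do combine probe sets. They are compared between genotypes and do not rank genes by level. Changes are mutant minus control with their standard error. A gene is called when its limma p-value, adjusted over all 18769 tested probe sets, is under 0.05. The number of arrays limits the precision. RMA values have no detection call, so a low range was defined on each array as the lower 95% of 98 control probe sets with names starting AFFX-Dm. Its upper limit lay between 5.73 and 5.99, and within it changes are compressed.

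Sox14 read 10.34, 10.67 and 10.73 on the mutant arrays and 11.40, 11.60 and 11.72 on the control arrays, a fall of 0.99 on the log2 scale (standard error 0.13, adjusted p = 0.00101). The transcript was therefore still measured well above the low range in animals labelled as mutant. Control probe sets set the first mutant array apart from the other 5. For 18S rRNA they averaged 12.18 there and 7.56 to 7.94 elsewhere. The actin probe sets near the 3′ end exceeded those near the 5′ end by 1.77 there and by 0.54 to 0.88 elsewhere. Calls of named genes and counts of calls that changed without it are given beside them. Over all genes, 2284 (19.1%) were called without it.

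Among the 8 measured peptide genes, 2 rose in the mutant, sNPF and Dh31, and 1 fell, Dh44. The other 5, NPF, AstC, Mip, Akh and Pdf, did not pass the test. Over all 11982 genes 11.3% rose and 13.4% fell, and 24.7% were called in either direction, against 37.5% of the 8. With so few members, 1 gene more or less moves that share by over 10 percentage points, and it is read here as a count only. The median change of the 8 was 0.20, and that of all genes was -0.03. The mutant and control arrays did not overlap for 5 of the 8 genes, compared with 42.8% of all genes. Without the first mutant array the 2 rises were still called and the fall was not.

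**Figure D1:**
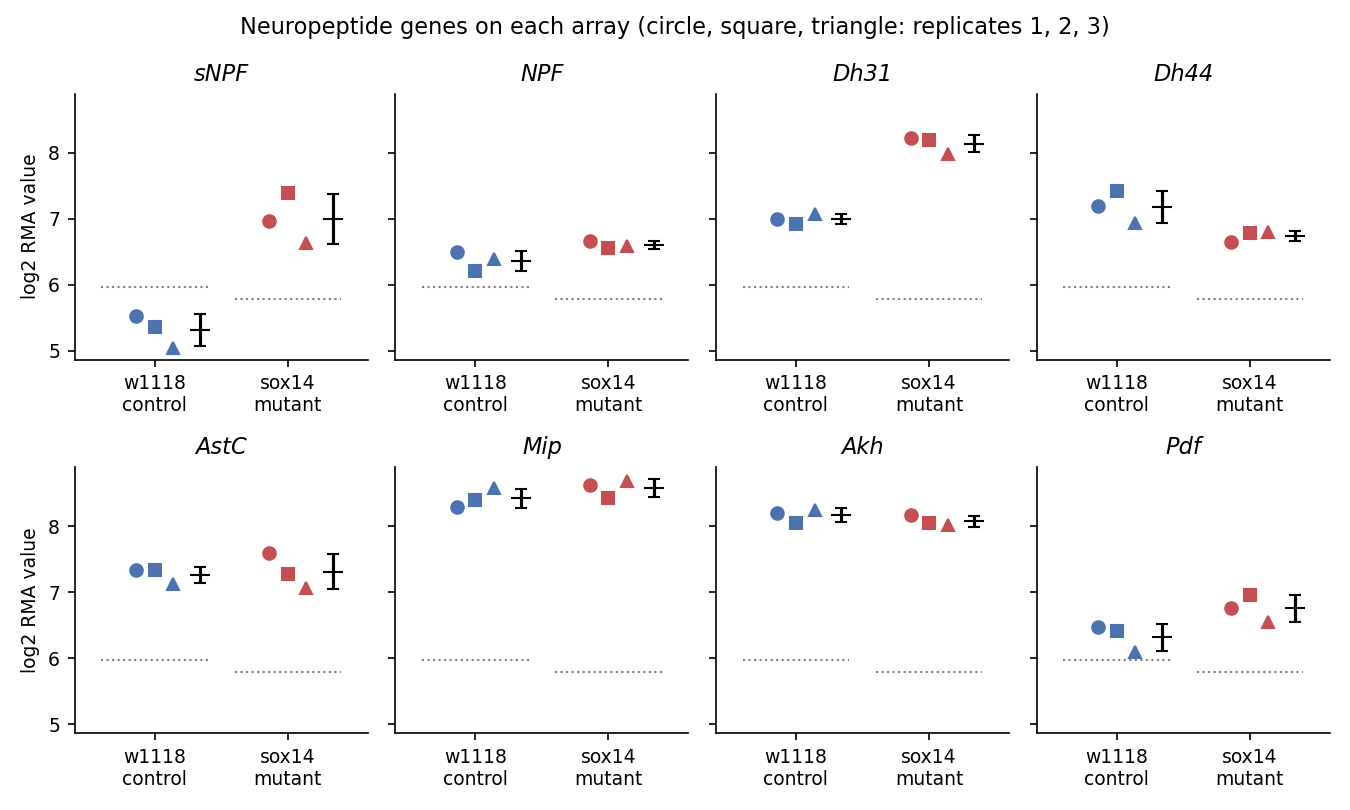
The log2 RMA value of each of the 8 measured peptide genes on each array, with the control in blue and the mutant in red. The black bars are the mean and SD over 3 arrays, and dotted lines are the mean upper limit of the low range in each genotype. The mutant points of sNPF and Dh31 sit clear of the control points, those of Dh44 sit below them, and only the control points of sNPF lie within the low range.

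The feeding peptides were sNPF and NPF, which share a name and a C-terminal sequence type but come from separate genes with separate receptors. sNPF encodes short neuropeptide F, which is made by many neurons of the brain and promotes feeding and growth. It read 6.97, 7.38 and 6.63 on the mutant arrays and 5.53, 5.36 and 5.05 on the control arrays. Every mutant array was above every control array, and the nearest values of the groups were 1.10 apart. The rise was 1.68 ± 0.20 (limma adjusted p = 0.000513), a 3.21-fold difference with a 95% interval from 2.35 to 4.38. All 3 control arrays lay in the low range, where changes are compressed. Measured against the upper limit of that range, the mean mutant level was 2.04-fold higher, a point estimate without an interval. Leaving out each array in turn gave changes from 1.49 to 1.86, all called.

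NPF encodes the long neuropeptide F, the relative of vertebrate neuropeptide Y, made by a few brain neurons and by midgut endocrine cells. It read 6.66, 6.56 and 6.58 on the mutant arrays and 6.50, 6.20 and 6.38 on the control arrays. The groups did not overlap, but only 0.05 separated their nearest values. The difference of 0.24 ± 0.10 did not pass the test (adjusted p = 0.158), and its 95% interval ran from 1.00-fold to 1.39-fold. The difference between sNPF and NPF within an array was taken to compare their responses, a comparison chosen after the values were seen. It was 0.39 ± 0.40 (SD, n = 3) in the mutant and -1.05 ± 0.26 in the control, with no overlap between the genotypes. The 2-sided exact permutation p was 0.1, which is the smallest that 3 against 3 arrays allow, and 0.1 after adjustment over the 2 pairs compared. Neither value allows for the choice of the pairs, so no conclusion is drawn from them.

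The diuretic hormones were Dh31 and Dh44, both of which act on the Malpighian tubules, the insect's kidney. Dh31 encodes the hormone related to calcitonin and CGRP, made in brain neurons and in midgut endocrine cells, where it also drives gut contractions. It read 8.23, 8.20 and 7.98 on the mutant arrays and 6.99, 6.92 and 7.07 on the control arrays. The groups were 0.92 apart at their nearest values and all 6 arrays were above the low range. The rise was 1.15 ± 0.10 (adjusted p = 9.73e-05), 2.21-fold with a 95% interval from 1.89 to 2.60, and it remained called with each array left out, at 1.10 to 1.22. Of all genes, 2.98% rose by more.

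Dh44 encodes the hormone related to corticotropin-releasing factor, made in neurosecretory cells of the brain. It read 6.65, 6.78 and 6.79 on the mutant arrays and 7.20, 7.42 and 6.93 on the control arrays. All mutant arrays were below all control arrays, with 0.13 between the nearest values. The fall was 0.44 on the log2 scale (standard error 0.13, adjusted p = 0.0469), which leaves the mutant at 0.736 of the control with a 95% interval from 0.599 to 0.905. This call rested close to the threshold. It was lost without any 1 of 5 arrays, with adjusted p-values of 0.0862 to 0.137, including 0.137 without the first mutant array, and held only without the third control array (0.0149). Changes over these fits ran from -0.57 to -0.32.

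Within an array, Dh31 minus Dh44 was 1.40 ± 0.20 (SD, n = 3) in the mutant and -0.19 ± 0.32 in the control. Across arrays the lowest mutant value was 1.19 and the highest control value 0.14. The 2-sided exact permutation p was again 0.1, the smallest possible, both before and after adjustment over the 2 pairs. This second pair was also chosen after the values were seen, which these p-values do not allow for.

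AstC and Mip encode inhibitory peptides. AstC gives allatostatin C, a peptide related to somatostatin that is made in brain neurons and midgut endocrine cells. It read 7.59, 7.28 and 7.07 on the mutant arrays and 7.34, 7.33 and 7.13 on the control arrays. The mutant arrays spanned the control values and reached beyond them at both ends. The difference was 0.05 ± 0.14 (adjusted p = 0.868), and the 95% interval from 0.827-fold to 1.29-fold does not exclude a small change either way. Its sign was negative without the first mutant array (-0.09), without the third control array (-0.02) and with array weights (-0.03), never with a call.

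Mip gives the myoinhibitory peptides, also known as allatostatin B, which slow muscle contractions and act on the sex peptide receptor. It read 8.62, 8.43 and 8.69 on the mutant arrays and 8.29, 8.40 and 8.57 on the control arrays, with overlap between the groups. The difference was 0.16 ± 0.11 (adjusted p = 0.391), with a 95% interval from 0.936-fold to 1.33-fold.

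Akh encodes the adipokinetic hormone of the corpora cardiaca, the endocrine cells that act like glucagon-producing cells and mobilise stored lipid and sugar. It read 8.16, 8.04 and 8.01 on the mutant arrays and 8.21, 8.05 and 8.25 on the control arrays. The groups overlapped, and the difference of -0.10 ± 0.10 did not pass the test (adjusted p = 0.559). Its 95% interval ran from 0.803-fold to 1.09-fold.

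Pdf encodes pigment-dispersing factor, the output signal of clock neurons in the brain. It read 6.76, 6.96 and 6.54 on the mutant arrays and 6.47, 6.40 and 6.09 on the control arrays. The groups did not overlap but lay only 0.08 apart at their nearest values. The difference of 0.43 ± 0.14 did not pass the test (adjusted p = 0.0665), and its 95% interval ran from 1.08-fold to 1.69-fold. Without the third mutant array it was called, at 0.54 (adjusted p = 0.0441), while without the second it was 0.33 (0.214).

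**Figure D2:**
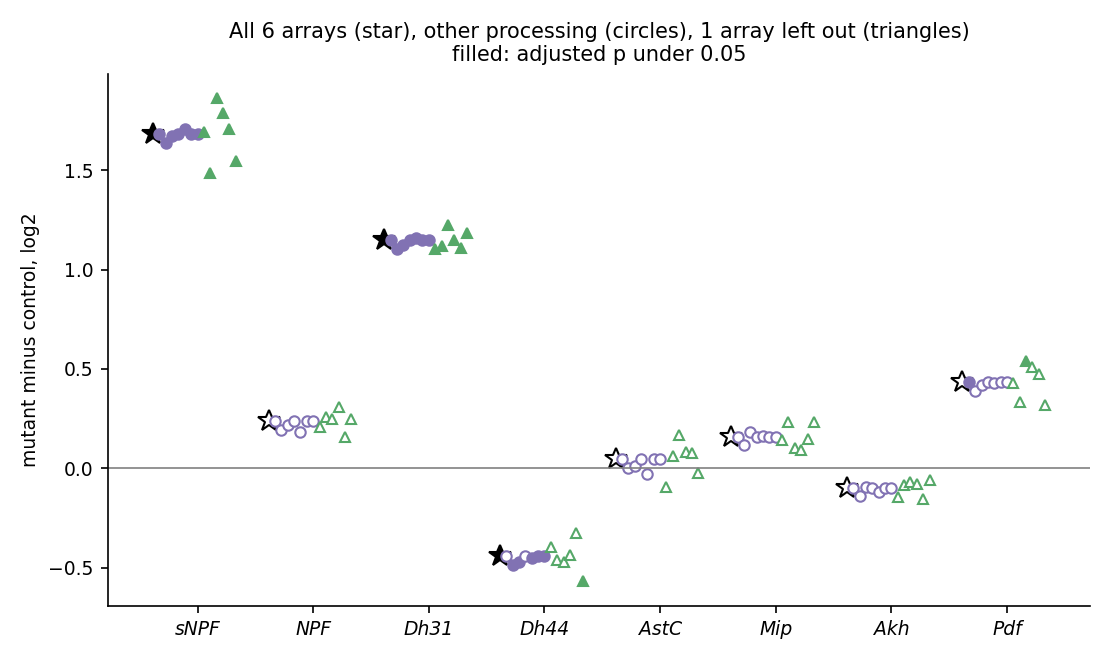
The mutant minus control change of each peptide gene on the log2 scale under every fit. Stars are all 6 arrays as deposited, circles other processing, triangles fits with 1 array left out, and filled symbols have an adjusted p under 0.05. Symbols of sNPF and Dh31 are filled throughout, those of Dh44 and Pdf change between filled and open, and the other 4 genes have open symbols throughout.

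The receptors of these peptides showed 2 calls, both higher, among the 11 of 14 listed that had a single-gene probe set. AstA-R1, AstA-R2 and AstC-R2 were not analysed here. The median change of the 11 was 0.06, and the 2 calls are to be read against the 24.7% of all genes that were called. sNPF-R, the receptor of short neuropeptide F, read 7.995, 7.16 and 7.35 on the mutant arrays and 6.66, 6.49 and 7.05 on the control arrays. Its groups did not overlap, although the highest control and the lowest mutant array lay close. Ligand and receptor of this pair were thus both called higher, the receptor by 0.77 ± 0.22 (adjusted p = 0.0439). The receptor's call was lost when the first mutant array was left out (0.52, adjusted p = 0.0917). It was also lost without mutant replicate 3 or without control replicate 1 or 2, with adjusted p-values up to 0.112.

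TkR99D, a receptor for the tachykinins encoded by Tk, read 6.21, 6.24 and 6.16 on the mutant arrays and 5.63, 5.74 and 5.96 on the control arrays. The difference of 0.42 ± 0.11 was called (adjusted p = 0.0243), with all control arrays in the low range. That call was lost without any 1 array other than the third control array, at adjusted p-values up to 0.0859. Neither receptor was thus called when the first mutant array was left out, and the adjusted p of TkR99D was then 0.0654.

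The receptors of the diuretic hormones did not pass the test. Dh31-R, the receptor of Dh31, read 6.59, 7.05 and 7.01 on the mutant arrays and 7.18, 7.24 and 7.23 on the control arrays. Every mutant array was lower, yet the difference of -0.33 ± 0.13 was not called (adjusted p = 0.119), and a second, dimmer probe set gave -0.03 ± 0.10. The first mutant array was the lowest, and without it the difference was -0.19 ± 0.09 (adjusted p = 0.259). Of the receptors of Dh44, Dh44-R1 was within the low range on all arrays (0.03 ± 0.09) and Dh44-R2 read 0.14 ± 0.17 higher. Neither was called (adjusted p = 0.868 and 0.634).

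The remaining receptors had changes from -0.43 to 0.32 without a call. NPFR, the receptor of NPF, read 0.32 ± 0.11 higher but lay in the low range on all 6 arrays. SPR, which responds to the peptides of Mip, gave 0.03 ± 0.11, and Pdfr, the receptor of Pdf, gave 0.06 ± 0.09. AkhR, through which Akh acts on the fat body, gave -0.43 ± 0.21 in its brighter probe set (adjusted p = 0.214). Its dimmer probe set fell by 0.58 on the log2 scale (standard error 0.10, adjusted p = 0.00532) while in the low range on every array. AkhR was named after its values were seen.

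**Figure D3:**
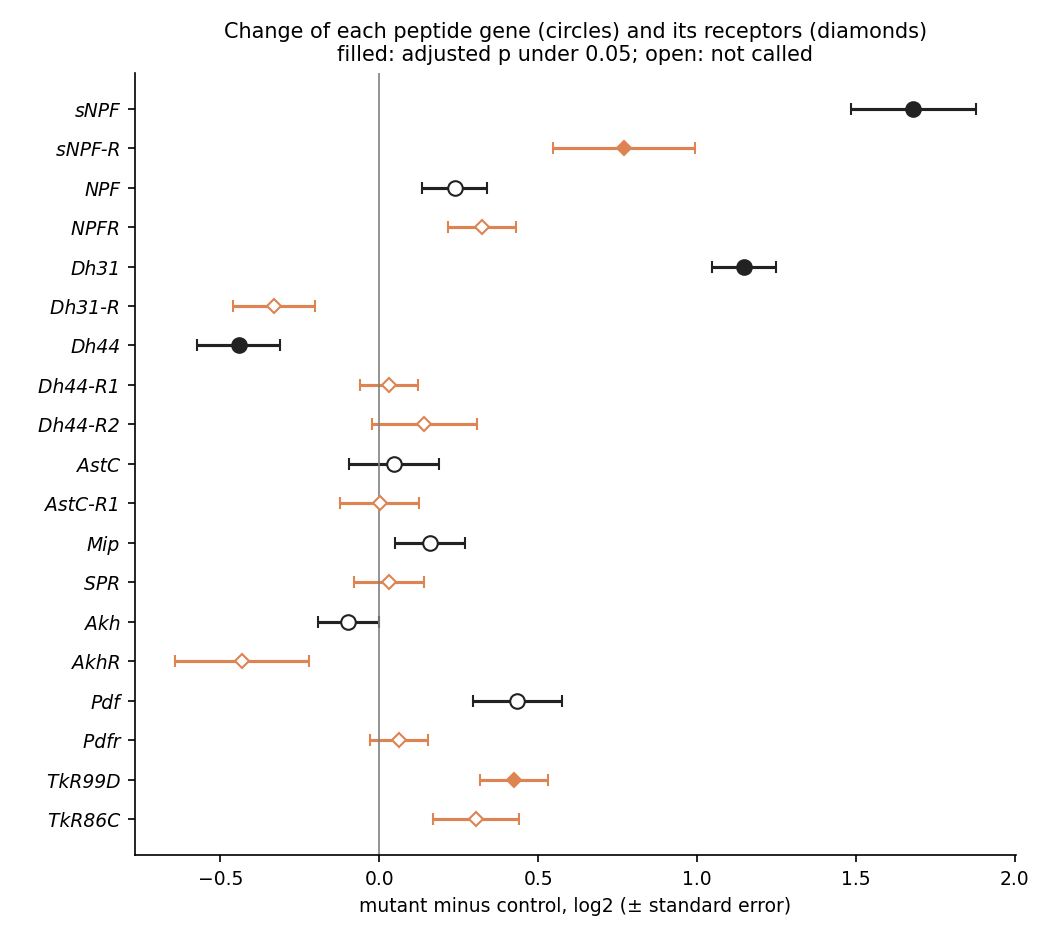
The mutant minus control change on the log2 scale, with its standard error, for each peptide gene (circles) and for its measured receptors below it (diamonds). TkR99D and TkR86C stand last because Tk itself was not analysed, and filled symbols have an adjusted p under 0.05. sNPF and sNPF-R are both filled to the right of zero, whereas Dh31 is to the right and Dh31-R, open, to the left.

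Peptides become active only after their precursors are cut, trimmed and amidated, and they leave the cell in dense core vesicles. Of 22 listed genes for these steps and for breakdown of peptides outside the cell, 19 were measured, of which 2 rose and 17 were not called, with a median change of -0.04. The 2 calls compare with 24.7% of all genes called, and leaving out 1 array gave 1 to 3. Without the first mutant array, Rab2, which encodes a GTPase of the secretory pathway, was also called, at -1.11 ± 0.20 (adjusted p = 0.01003). With all arrays it was -0.79 ± 0.28 (0.0909), and it was named after its values were seen. Phm encodes the hydroxylase that begins C-terminal amidation. It read 11.85, 11.92 and 11.94 on the mutant arrays and 11.52, 11.46 and 11.40 on the control arrays. The groups did not overlap, and the rise of 0.44 ± 0.09 was called (adjusted p = 0.00797) and remained so with each array left out. A second, dimmer probe set of Phm gave 0.41 ± 0.16 without a call (adjusted p = 0.126). Ance, which encodes a peptidase related to angiotensin-converting enzyme, rose by 0.41 ± 0.10 (adjusted p = 0.0271), a call that was lost without any 1 of 4 arrays (adjusted p up to 0.0929). Among the others, amon, which encodes the prohormone convertase that cuts neuropeptide precursors, read 0.30 ± 0.17 higher (adjusted p = 0.284), and Cadps, which primes dense core vesicles for release, read 0.37 ± 0.11 higher (adjusted p = 0.0510) in its brighter probe set and -0.20 ± 0.26 in a dimmer one. These 2 genes were named after their values were seen.

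The other neuropeptide and peptide hormone genes on a list of 36 gave 28 that were measured, of which 4 rose and 2 fell, with a median change of 0.11. Orcokinin, made by neurons and midgut endocrine cells, rose by 0.83 ± 0.19 (adjusted p = 0.0159), and Ms, the gene of the muscle-relaxing peptide myosuppressin, by 0.58 ± 0.12 (adjusted p = 0.00996). Nplp4 fell by 1.44 on the log2 scale (standard error 0.18, adjusted p = 0.000700), from 12.27 ± 0.08 (SD, n = 3) to 10.83 ± 0.39. Trissin fell by 0.61 (standard error 0.11, adjusted p = 0.00557) and lay in the low range on all arrays. The 6 calls among 28 compare with 24.7% of all genes called. When the first mutant array was left out, 2 were called higher and 2 lower.

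Markers of the cells that make these peptides were measured on the same arrays. Of 10 listed markers of neurons 9 were measured, 1 rose, 1 fell and 7 were not called, with a median change of 0.18, compared with 24.7% of all genes called. Snap25, a component of the synaptic fusion machinery, rose by 1.34 ± 0.13 (adjusted p = 0.000169). nSyb, its partner on the synaptic vesicle, fell by 0.36 on the log2 scale (standard error 0.10, adjusted p = 0.0424). The call of nSyb was lost without any 1 of 5 arrays, including the first mutant array (adjusted p = 0.0937), and held only without the second control array. Linear levels were also summed over each list, and the brightest probe sets weigh most in such a sum. The sum of the 9 neuron markers was 2015 to 2563 on the mutant arrays and 1910 to 2094 on the control arrays, which overlapped. In the mean log2 level of a list each gene weighs the same. For the 9 neuron markers that mean did not overlap, at 7.12 to 7.29 in the mutant and 6.96 to 7.04 in the control. By value 6 of the 9 were higher in the mutant. Only 1 of the 9 lay in the low range on all arrays.

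All 10 genes listed as enteroendocrine markers were measured, though not all are particular to enteroendocrine cells. Of the 10, 3 rose and 1 fell, with a median change of 0.32, and their genotypes did not overlap for 6. Over all genes 24.7% were called and 42.8% did not overlap. pros, which encodes a homeodomain protein that marks these cells and also many neurons, rose by 1.46 ± 0.20 (adjusted p = 0.00135). Rab3, a GTPase of secretory vesicles, rose by 0.63 ± 0.12 (adjusted p = 0.00685). Orcokinin, already counted among the other peptide hormone genes, also rose. CCHa1 and CCHa2 are on that list too, and IA-2 is on the processing list. tap, which encodes a bHLH factor of the endocrine cell lineage, fell by 1.08 on the log2 scale (standard error 0.15, adjusted p = 0.00109). The summed linear level was 4402 to 4962 on the mutant arrays and 3385 to 3898 on the control arrays. The brightest probe sets in that sum, those of CCHa2 and esg, were not called and overlapped between genotypes, so its separation does not stand for the list. The part of these markers in the rises of sNPF and Dh31 was not tested.

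Markers of other tissues are to be read against the 11.3% of all genes that rose and the 13.4% that fell. Single-gene probe sets were found for 8 of 10 listed enterocyte markers, 3 of 7 muscle markers and 5 of 7 fat body markers. Of 8 measured enterocyte markers 6 rose and 2 were not called, with 5 rising when the first mutant array was left out, since nub was then not called (adjusted p = 0.126). With all arrays the brightest probe set of nub gave 0.54 ± 0.16 (limma adjusted p = 0.0478). Its 2 dimmer probe sets, in the low range on every array, gave -0.07 ± 0.11 and -0.17 ± 0.14 without a call. With median centring, and with averaged probe sets per gene, 5 enterocyte markers rose. The rises with the lowest adjusted p-values were those of betaTry (5.82 ± 0.17), Mal-A1 (2.83 ± 0.15), Jon99Ci (1.73 ± 0.15) and alphaTry (0.83 ± 0.09), with limma adjusted p-values of at most 0.000326. The control arrays of Mal-A1 lay in the low range, as did those of the muscle gene Mlc2. The summed linear level of the 8 enterocyte markers was 34547 to 43539 in the mutant and 15509 to 16557 in the control. All 3 measured muscle markers rose, Tm2 by 1.88 ± 0.12, Mlc2 by 1.46 ± 0.16 and up by 1.19 ± 0.11, and their summed level was 2088 to 2593 against 655 to 800. Of 5 measured fat body markers 2 fell, Fbp2 by 0.86 and Lpin by 0.45 on the log2 scale, with summed levels of 116160 to 117750 against 139590 to 144920. The call of Lpin was lost without any 1 of 4 arrays.

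Of 7 listed glia markers 6 were measured. Among these, alrm (0.92 ± 0.17) and moody (0.50 ± 0.10) rose, and repo fell by 0.71 on the log2 scale. The summed levels of the 6 overlapped, at 9356 to 10976 in the mutant and 8330 to 10464 in the control. The brightest probe set in that sum, that of Gs2, was not called. The mean log2 level of the 6 did not overlap, at 8.80 to 9.04 in the mutant and 8.64 to 8.73 in the control. By value 5 of the 6 were higher in the mutant. Of 7 listed markers of peptide and steroid glands, a list that includes Akh, 5 were measured. Of these 1 rose, ETH (0.49 ± 0.14, adjusted p = 0.0418), the gene of ecdysis-triggering hormone. ETH was already counted among the rises of the other peptide hormone genes, and dimm, not called, is also on the processing list. The call of ETH was lost without any 1 of 4 arrays, the first mutant array among them (adjusted p = 0.105), and in 8 of 13 alternative fits in all. The summed level of the gland markers was 1022 to 1229 in the mutant and 1166 to 1424 in the control. For the 8 peptide genes themselves, the sum ranged from 1457 to 1608 with the mutant allele and from 1255 to 1270 without it. The part of these tissues in the peptide genes' changes was not tested.

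**Figure D4:**
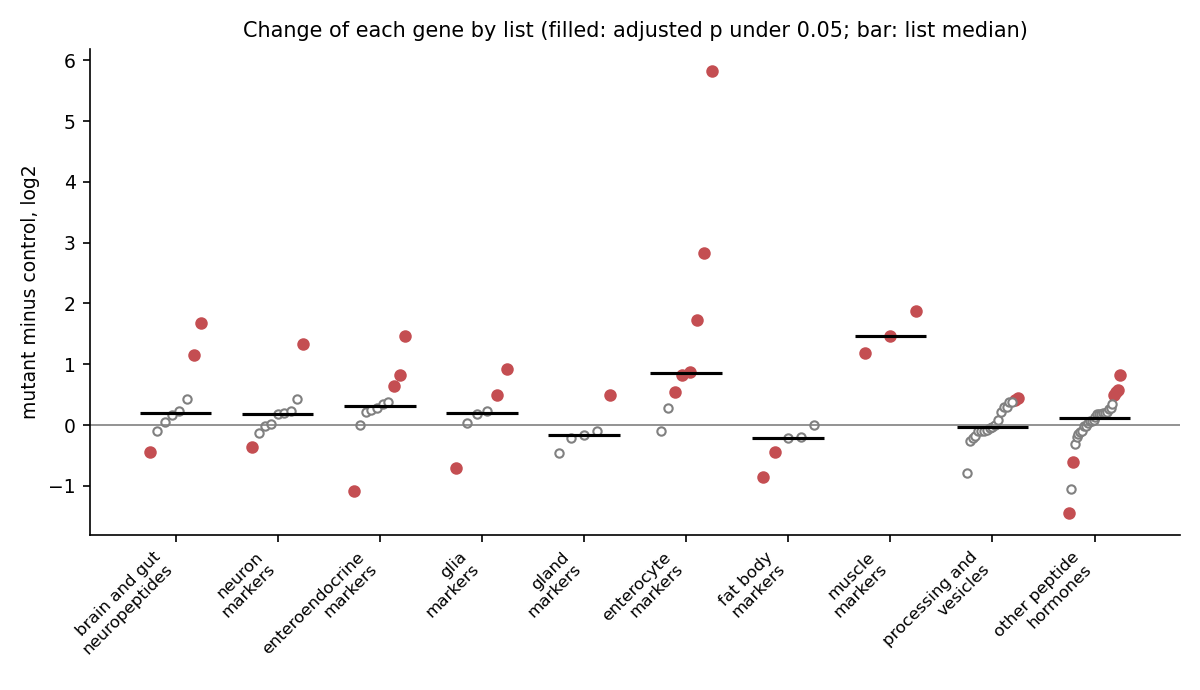
The mutant minus control change on the log2 scale of each measured gene in each list. Filled points have an adjusted p under 0.05, open points were not called, and bars are list medians. The peptide genes spread from -0.44 to 1.68 around a median of 0.20. The other medians run from -0.21 (fat body), -0.16 (gland) and -0.04 (processing and vesicles) over 0.11 (other peptide hormones), 0.18 (neuron), 0.21 (glia) and 0.32 (enteroendocrine) to 0.85 (enterocyte) and 1.46 (muscle).

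Position in the genome was the last property compared. Of the 8 measured peptide genes, 3 lie on chromosome 2, which also carries Sox14, and 5 on chromosome 3. Both peptide genes that rose are on 2L, as is AstC, which was not called (0.05 ± 0.14), and Dh44 is on 3R. The share of all 2L genes that rose was not computed, so these positions are given as a count only. For genes on chromosome 2, an effect of Sox14 and differences carried on the mutant chromosome cannot be told apart. Inherited differences between the genotypes on the other chromosomes were not tested. The 2 nearest measured genes on each side of the 3 called genes gave 12 neighbours, of which 5 (41.7%) were called, 2 higher and 3 lower, compared with 24.7% of all genes. These 12 genes are too few to read that difference as more than a count. Beside sNPF, AANATL3 (0.02 ± 0.11) and barr (-0.20 ± 0.10) were not called, and CG43861 and lok, the next genes out, were lower, at -0.68 ± 0.17 and -0.40 ± 0.09. Beside Dh31, Bace, which encodes an aspartyl protease, rose by 2.20 ± 0.11 (adjusted p = 3.65e-06), CG13088 gave 0.06 ± 0.15, and CG13096 fell by 0.34 on the log2 scale. Beside Dh44, Scm (0.21 ± 0.14) and Fst (-0.22 ± 0.12) were not called, while SpdS, the gene of spermidine synthase, rose by 0.91 ± 0.13. Of the nearest measured genes, neither next to sNPF was called higher, whereas next to Dh31 Bace was and CG13088 was not. Genes without a single-gene probe set may lie between these, and an effect of position was not tested.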

How the data were processed

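The authors deposited 1 table of log2 values, and the submitters' processing notes name RMA and version 1.1 of Affymetrix Expression Console, without their settings. The log2 scale was read from the values, which lay between 3.45 and 15.43. Column medians of the 6 arrays were 7.00 to 7.07, and correlations were 0.993 to 0.996 within a genotype and at most 0.976 between genotypes.

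Of 18952 probe sets, 183 Affymetrix controls were left out and 18769 were tested with lmFit and eBayes (limma 3.58.1 under R 4.3.3). P-values are 2-sided and were adjusted over all of these by the Benjamini-Hochberg method. The platform table gave 1 gene to 13647 probe sets, several to 402 and none to 4720. By gene identifier, 13544 matched RefSeq, which changed 0 symbols. For genes with several probe sets, the one with the highest mean was used. Intervals are 95% intervals of the same fit.

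The members, lists and naming rule were chosen with earlier results of these data known. The rule named all members, Sox14, up to 6 called receptors and processing genes, up to 4 called genes of every other list, and the receptors of called members. The low range leaves out 2 control probe sets that differed between genotypes by over 1 on the log2 scale. It, the neighbours and the within-array pairs were added after seeing the data. The fit was tested on simulated data with 50 planted changes of each size. It recovered 50% of the changes of 0.5 and 98% of the changes of 1 on the log2 scale. Far fewer changes were planted than were called in the data, so these shares need not hold there. Results were recomputed with each array left out, with a threshold of 0.01, without the dimmest 40% of probe sets, with averaged probe sets per gene, and with array weights. Quantile normalisation, centring on the median, a trended robust prior and a replicate block were also tried.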

Additional observations from a re-analysis of the deposited data

How the results depend on the processing

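Of 104 refits of the 8 peptide genes, 92 kept direction and side of the threshold, among them all those of sNPF, Dh31, NPF, Mip and Akh. The count of peptide genes called stayed at 2 or 3, but its members changed. With the replicate block it was 3, all higher, since Pdf was called (adjusted p = 0.0313) and Dh44 was not (0.0591). The labels do not say whether arrays with the same replicate number were handled together. Deviations from the group means correlated at 0.17, -0.10 and -0.02 for same-numbered arrays. For differently numbered arrays they ran from -0.26 to 0.26, so these correlations cannot decide it. Over all probe sets the block gave 3276 calls against 3577. Dh44 was also not called with a trended robust prior (0.0594). At a threshold of 0.01, 1963 probe sets and 2 peptide genes were called. Leaving out 1 array gave 2493 to 3268 probe sets.

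The uncalled difference of AstC turned to -0.028 with array weights and ranged from -0.093 to 0.169 with 1 array left out. That of Dh44-R1 turned to -0.012 with median centring and ranged from -0.020 to 0.063. Of 387 refits of 30 other named genes, 33 lost a call. sNPF-R lost its call under quantile normalisation. The causes were not tested. Levels near the low range, 3 arrays a genotype and the missing probe sets of Tk and AstA limit what these data show.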
